A study of Mus musculus with 6 samples.

Results

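The genes examined are the TRIM family of ubiquitin ligases, taken as every gene of the deposited table whose symbol is Trim followed by a number. The rule found 69 of the 30419 genes with values and 267 of the 131206 transcripts, of which 230 had values. RNA was measured in whole colons of male mice aged 12 weeks, 3 wild type (WT) and 3 labelled Tnfrsf1a-/- (R1ko), with the strain given as C57Bl/6J for every sample. Tnfrsf1a encodes TNF receptor 1, which passes on the signal of the cytokine tumour necrosis factor. The design text gives 3 mice for each genotype, and the labels name no Cre, transgene or treatment. Values are TPM, a relative transcript abundance corrected for transcript length, so levels can be set side by side between genes.

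TRIM proteins are built on a RING domain, B-box zinc fingers and a coiled coil, although some members, such as Trim14, Trim16, Trim29 and Trim44, lack the RING, and most act as E3 ligases that pass ubiquitin to other proteins. Family members differ mainly in the C-terminal part, such as a PRY-SPRY, NHL or PHD-bromodomain module, which binds the partner. Many TRIM genes are known for roles in antiviral and NF-kB signalling, and others for transcription, the cytoskeleton or muscle turnover.

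In these colons no TRIM gene passed the test for a difference between the genotypes by its summed transcripts. In the main fit 1 TRIM transcript did, a short Trim26 form that was almost missing from the 3 knockout libraries. That call was lost in several of the alternative runs given below. Trim26 (ENSMUSG00000024457) is a PRY-SPRY ligase whose known partners include the antiviral factor IRF3. It lies on the plus strand of mouse chromosome 17 (mm10 chr17:36837134-36859398). Its coding transcript ENSMUST00000053434 has 10 exons. The short form, ENSMUST00000156872, is annotated as a processed transcript without a coding region and starts inside the gene (chr17:36854634-36859398, 5 exons). The 4 sequences shown here trace how the Trim26 transcripts reach exon 7 (chr17:36856202-36856224), the point where the short form differs from the others. Each line ends with the 23 bases of exon 7, and capitals mark the exon joined to it. The first 3 lines begin with the last 30 bases of exon 5. Sequences are from the GENCODE transcripts of mm10, written 5′ to 3′.
ENSMUST00000053434, through exon 6 (chr17:36854284-36854301): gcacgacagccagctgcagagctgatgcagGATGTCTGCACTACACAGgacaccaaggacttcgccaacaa
ENSMUST00000179968, through an alternative exon 6 (chr17:36856071-36856088): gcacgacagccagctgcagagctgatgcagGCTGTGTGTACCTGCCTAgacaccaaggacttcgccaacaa
ENSMUST00000124136, exon 5 joined directly to exon 7: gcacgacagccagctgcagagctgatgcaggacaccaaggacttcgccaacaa
ENSMUST00000156872, from its own first exon (chr17:36854634-36854711): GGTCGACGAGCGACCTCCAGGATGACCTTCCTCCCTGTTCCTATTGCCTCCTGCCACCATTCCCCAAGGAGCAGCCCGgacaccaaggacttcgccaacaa

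The 78 capital bases of the short form's first exon also lie inside the last exon (chr17:36852463-36856031) of ENSMUST00000134325, a Trim26 transcript that keeps the intron after exon 5. What sets the short form apart from the other Trim26 transcripts is therefore the join of that exon to exon 7. Of the 31-base words in its 2249 bases, 28 occur in no other Trim26 transcript, and these cover bases 50 to 107. None of the 28 was found in another of the 141767 transcripts of the GENCODE M21 set. The coding transcripts ENSMUST00000053434 and ENSMUST00000130367 have 0 such words of their own, so the split of reads between those 2 rests on the rest of the estimate.

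The libraries themselves were compared first. Colon epithelial markers were present in every library, with a summed level of 7424 to 10484 TPM over 10 genes. The protein-coding Tnfrsf1a transcript ENSMUST00000032491 was assigned 39.9 to 67.6 TPM in wild type and 20.4 to 25.6 TPM in knockout, without overlap. Whether the knockout libraries held that transcript in full, or only reads it shares with other Tnfrsf1a transcripts, was not tested. Another Tnfrsf1a transcript, ENSMUST00000125880, was at 0.890 to 1.204 TPM in wild type and 12.4 to 18.01 TPM in knockout. The Tnfrsf1a sum overlapped, at 44.1 to 71.2 TPM and 36.5 to 49.2 TPM. On the first principal component (49.7% of the variance) replicate 2 of wild type (50.2) and replicate 2 of the knockout (21.1) stood on one side and the other 4 libraries on the other (-30.3 to -11.7). Transcripts without a gene took 27.4% of the TPM of wild-type replicate 2, 7.23% in knockout replicate 2 and 1.86 to 4.05% in the other 4. All other transcripts of wild-type replicate 2 are thereby lowered. Of the 46 tested TRIM genes, 29 had their lowest value there, and the same count over all tested genes was not made. Summed over all TRIM genes the level was 829, 606 and 831 TPM in wild-type replicates 1 to 3 and 812, 675 and 824 TPM in the knockout replicates. Other cell types varied as well: 13 skeletal muscle markers summed to 229 to 3845 TPM in wild type and 1457 to 3900 TPM in knockout, and 11 B and plasma cell markers to 52.2 to 82.0 and 23.3 to 60.4 TPM. The 7 adipocyte markers summed to 54.0 to 152 TPM in wild type and 186 to 256 TPM in knockout.

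Trim26 as a whole did not pass the test. Its summed level was 49.9, 32.9 and 43.9 TPM in wild type and 49.8, 40.5 and 43.4 TPM in knockout, so the groups overlapped. The short form was at 4.40, 2.81 and 2.64 TPM in wild type. In the knockouts it was at 0.0320 TPM in replicate 1, at 0.00264 TPM in replicate 3 and at a value that rounds to 0 in replicate 2. All wild-type colons were thus high and all knockout colons near 0. On the log2(TPM + 0.5) scale the difference was -2.86 ± 0.36 (SE, n = 3 and 3), and limma, fitted over 31056 transcripts, gave an adjusted p of 0.0330. This scale understates the change of low values. It was the 1 of 106 tested TRIM transcripts past the threshold of 0.05, where 0.0419% of all tested transcripts passed in either direction and 0.0129% as lower in knockout, and 4 of the 106 had an unadjusted p under it (5.02% of all). The adjusted p was 0.0881 without wild-type replicate 1, 0.209 without wild-type replicate 2, 0.0931 without wild-type replicate 3 and 0.0563 without knockout replicate 3. It was 0.261 with a pseudocount of 0.1 TPM in place of 0.5 and 0.266 with no filter on low values.

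**Figure D1:**
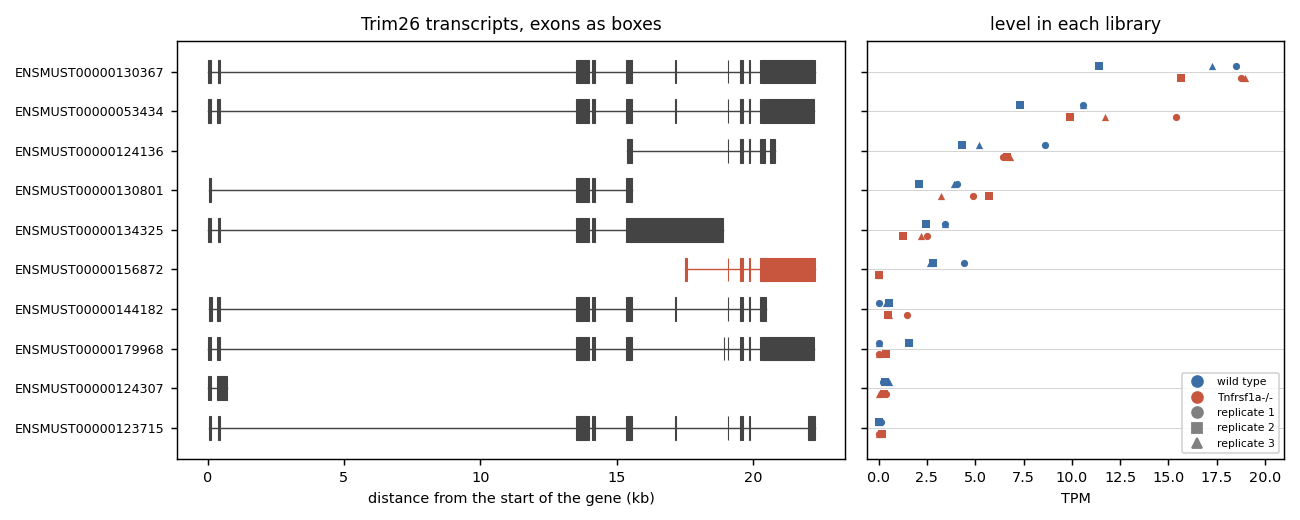
Exon maps of the 10 Trim26 transcripts (left, distance from the start of the gene in kb) beside the TPM of each in every library (right, blue for wild type, red for Tnfrsf1a-/-, marker shape for the replicate). The short form in red is at 2.64 to 4.40 TPM in the wild-type libraries and at or near 0 in the 3 knockout libraries, while the 2 transcripts with the highest levels overlap between genotypes.

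As a share of the Trim26 total, the short form held 8.81, 8.53 and 6.00% in wild type and 0.0643, 0 and 0.00607% in knockout (rounded in replicate 2). The means were 7.78% ± 1.55 and 0.0234% ± 0.0355 (SD, n = 3 each), a difference of -7.76 percentage points. A two-sided exact permutation test gave p = 0.1, the smallest that 3 against 3 can give. In the limma fit over 26627 transcript shares its adjusted p was 0.0847. None of the 101 tested TRIM shares passed (0.0188% of all shares did), and 15 had an unadjusted p under 0.05 (10.1% of all). Leaving out the short form, the rest of Trim26 summed to 39.0 ± 7.97 TPM in the wild types and 44.6 ± 4.75 TPM in the knockouts (exact permutation p = 0.5). By mean, B and plasma cell markers were lower and adipocyte markers higher in the knockout libraries, and their part in the change of the short form was not tested.

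None of the other Trim26 transcripts passed. Those that reach exon 7 through exon 6 held 58.5, 58.6 and 64.2% of the gene in wild type and 71.4, 64.6 and 71.9% in knockout. These shares did not overlap, although the closest pair lay at 64.2 and 64.6% (exact permutation p = 0.1). The loss of the short form raises the shares of all others, so they were also computed over the rest of the gene. There the exon 6 class held 64.2, 64.1 and 68.3% in wild type and 71.5, 64.6 and 71.9% in knockout, with overlap, and the difference in means was 3.82 points in place of 8.88 (exact permutation p = 0.2). Among them, ENSMUST00000053434 held 21.2, 22.3 and 24.0% against 30.8, 24.4 and 26.9%. The leading transcript ENSMUST00000130367 held 37.0% ± 2.32 and 40.0% ± 3.24. The transcript that joins exon 5 directly to exon 7 held 14.1% ± 2.83 and 15.0% ± 1.88, with overlap. ENSMUST00000130801, which ends in exon 5, held 7.80% ± 1.28 and 10.5% ± 3.35.

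The intron-retaining ENSMUST00000134325, which contains the first exon of the short form, held 6.87, 7.51 and 7.83% in wild type and 5.05, 3.16 and 5.02% in knockout. These shares did not overlap, also over the rest of the gene (7.54, 8.21 and 8.33% against 5.05, 3.16 and 5.02%). Groups without overlap were found in 17.7% of all tested shares, and the adjusted p of the share of the whole gene was 0.444 in limma. Tested transcripts that keep an intron mostly had a log2 fold change below 0, in 17 of 19 for TRIM genes and 3988 of 4803 over all genes. Whether the lower share of ENSMUST00000134325 goes beyond that general shift was not tested. The alternative exon 6 was used by ENSMUST00000179968, at 1.58 TPM in wild-type replicate 2, 0.408 TPM in knockout replicate 2 and under 0.01 TPM in the other 4 libraries. The remaining 3 transcripts, ENSMUST00000144182, ENSMUST00000124307 and ENSMUST00000123715, had mean shares between 0.0836 and 1.80% in either genotype.

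A pattern of presence in one genotype and near absence in the other was rare in the table. Among 159 TRIM transcripts with at least 0.5 TPM in some library, 1 had at least 0.5 TPM in all wild-type libraries and at most 0.05 TPM in all knockouts. That was the Trim26 short form, and 0 showed the opposite pattern. Over all 46913 such transcripts, 20 (0.0426%) showed it in each direction. The Trim26 values were known when these limits were applied, so the count describes the short form and adds no support to its call. A Trim32 transcript with a similar pattern, given below, did not reach 0.5 TPM in every wild-type library.

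The family as a whole covered a wide range of levels. In wild type 38 of the 69 genes reached 5 TPM, 24 reached 10 TPM and 3 reached 50 TPM, with a median coefficient of variation of 18.6% among the 46 genes tested. Trim28, Trim16 and Trim41 led, at 67.5 ± 10.6, 62.7 ± 7.80 and 61.8 ± 17.4 TPM, and did not differ beyond their spread. Trim26 and Trim31 followed at 42.2 ± 8.63 and 42.1 ± 0.586 TPM, then Trim2 at 34.7 ± 8.06 TPM and Trim25 at 30.8 ± 6.35 TPM, which overlapped. Another 23 genes stayed under the filter of a mean of 1 TPM over the 6 libraries. Trim60 was listed at 0 in all 6 libraries.

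**Figure D2:**
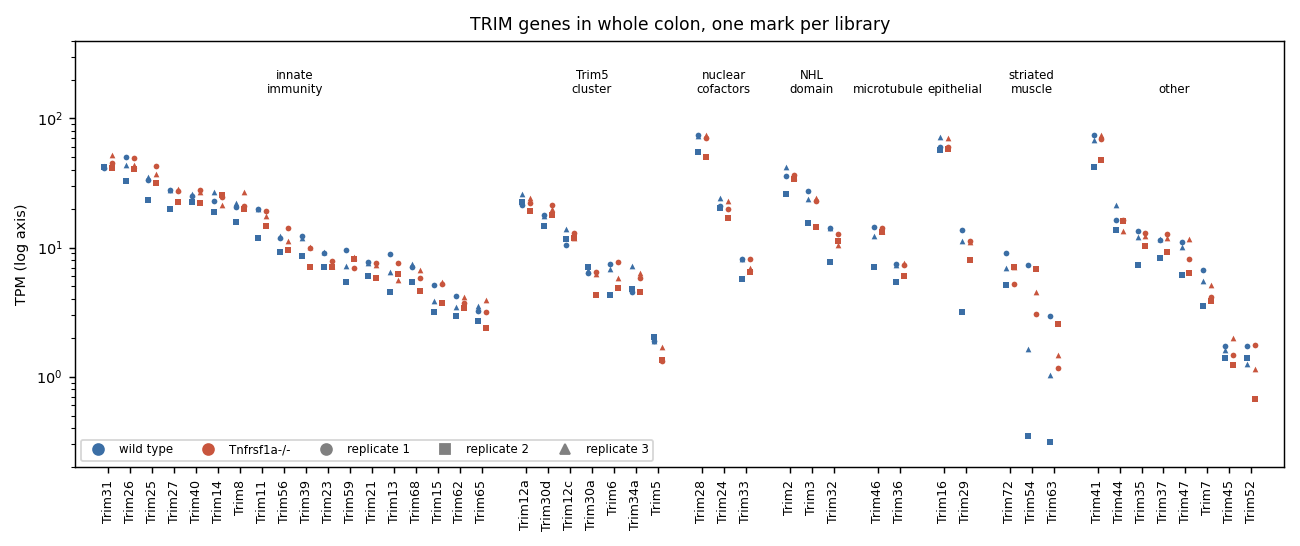
TPM (log axis) of the 46 TRIM genes tested, grouped by role, with one mark for each library (blue for wild type, red for Tnfrsf1a-/-, marker shape for the replicate). Trim28, Trim16 and Trim41 stand highest, wild-type replicate 2 is often the lowest mark, and the genotypes overlap in all but Trim5 among these 46 genes.

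Between genotypes, 0 of 46 tested TRIM genes passed in limma, where 0.266% of all 14284 tested genes did, and the lowest adjusted p was 0.9999. Only Trim54 had an unadjusted p under 0.05, or 1 of 46 against 3.7% of all genes. The median log2 fold change over the 46 genes was 0.03, equal to the 0.03 over all genes tested, with 25 values above 0 and 21 below. The sign of 15 of these 46 turned when TPM were rescaled over transcripts with a gene, so the counts of values above and below 0 given here hold for TPM as deposited. Without wild-type replicate 2 both medians turned negative, at -0.10 and -0.13. The same rescaling shifted them to -0.09 and -0.10. Leaving Trim54 aside, log2 fold changes ran from -0.32 for Trim5 to 0.41 for Trim63.

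**Figure D3:**
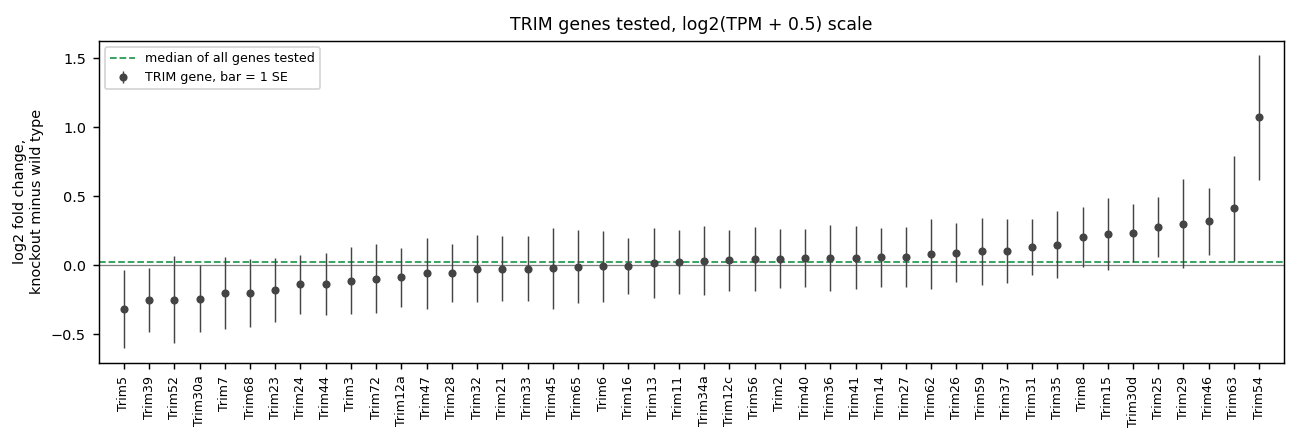
Log2 fold change of the 46 tested TRIM genes on the log2(TPM + 0.5) scale, knockout minus wild type, in increasing order. Points are the limma estimates, bars are 1 SE and the dashed line is the median of all genes tested; values run from -0.32 (Trim5) to 1.07 (Trim54), and none passed the threshold.

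Groups that do not overlap were also counted. Among the 46 genes 1 had no overlap, Trim5, which was lower in knockout, or 2.17% against 4.98% of all tested genes in either direction and 1.81% lower in knockout. After median-of-ratios scaling, which raises the values of wild-type replicate 2, there were 4 (8.70%, against 18.5% of all genes): Trim25 higher, and Trim23, Trim39 and Trim5 lower. With TPM rescaled over transcripts with a gene there were also 4 (8.70%, against 21% of all genes), namely Trim23, Trim39, Trim5 and Trim68, all lower. In either direction these counts lay below the background under each of the 3 scalings, while the single Trim5 call, taken as lower in knockout, was near the background of that direction.

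The innate immunity group holds ligases and cofactors of antiviral and NF-kB signalling. None of its 18 tested genes passed, 13 had a value above 0 and 5 below, and the median log2 fold change was 0.06. Trim31, known for ubiquitination of MAVS and for intestinal expression, was at 41.7, 41.7 and 42.7 TPM in wild type and 45.5, 41.7 and 51.7 TPM in knockout. The wild-type colons were almost alike and the knockouts reached from their level upward (log2 fold change 0.13 ± 0.20). Trim25, the ligase known for activating the RNA sensor RIG-I, was at 33.6, 23.5 and 35.3 TPM in wild type and 42.5, 31.6 and 37.2 TPM in knockout. Its log2 fold change of 0.28 ± 0.22 was the largest of this group, and the groups overlapped in TPM as deposited.

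Trim27, a PRY-SPRY protein also known as RFP, was at 25.3 ± 4.60 and 26.2 ± 3.08 TPM, a log2 fold change of 0.06. Trim39 and Trim23 were picked out after their values were seen, because their groups separated after scaling. Trim39, known as a ligase in the DNA damage response, was at 12.3, 8.55 and 11.8 TPM in wild type and 9.99, 7.11 and 10.1 TPM in knockout (log2 fold change -0.25). Trim23, which also carries a GTPase domain of the ARF type, was at 8.47 ± 1.25 and 7.39 ± 0.43 TPM (log2 fold change -0.18). Neither passed in limma under any alternative run.

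The TRIM genes next to Trim26 on chromosome 17 share its neighbourhood within the major histocompatibility region. Of 6 TRIM genes on that chromosome, Trim10, Trim15, Trim26, Trim31, Trim39 and Trim40, 5 were tested, and 4 had a log2 fold change above 0. The range was -0.25 for Trim39 to 0.23 for Trim15. Trim40, which is known for intestinal expression, was at 24.6 ± 1.79 and 25.7 ± 3.19 TPM. By gene sum none of these genes passed, Trim26 included, and these sums do not show what single transcripts do. Trim39 and Trim40 also had a tested transcript whose groups did not overlap, as did 8.19% of all tested transcripts, and neither passed in limma.

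The Trim5 cluster on chromosome 7 holds the rodent relatives of the retroviral restriction factor TRIM5. Of 7 tested genes 0 passed, 3 were above 0 and 4 below, with a median of -0.01. Trim5 (chr7:104263386-104288094, minus strand) was at 1.88, 2.03 and 1.90 TPM in wild type and 1.33, 1.36 and 1.70 TPM in knockout. All knockouts lay below all wild types, at a low level, with a log2 fold change of -0.32 ± 0.28 and an unadjusted p of 0.273 in limma. Trim12a was at 23.2 ± 2.38 and 21.8 ± 2.54 TPM, and Trim12c at 12.0 ± 1.75 and 12.2 ± 0.622 TPM. Trim30a, known as a brake on Toll-like receptor signalling, was at 6.36, 7.04 and 6.72 TPM in wild type and 6.52, 4.28 and 6.25 TPM in knockout (log2 fold change -0.24). Its relative Trim30d was at 17.9, 14.6 and 17.5 TPM against 21.4, 17.7 and 19.8 TPM (log2 fold change 0.23), so the 2 relatives had opposite signs and neither passed.

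Under the filter, 2 of 22 TRIM genes with a value above 0 had groups without overlap, both lower in knockout, where 4.4% of all genes under the filter did so in that direction. Both are of the Trim30 type and were picked out after their values were seen. Trim30b was at 1.07, 1.49 and 1.17 TPM in wild type and 0.550, 0.719 and 0.861 TPM in knockout. The pseudogene Trim30e-ps1 was at 0.796, 0.676 and 0.821 TPM against 0.516, 0.474 and 0.625 TPM.

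Several genes of this cluster share sequence, which makes their separate levels uncertain. Of the 31-base words of Trim34b, 69.0% also occur in Trim34a, and for Trim34a 48.7% occur in Trim34b. Trim5 and Trim12c share 37.9% and 38.7% of their words with each other. For Trim12a, Trim30a and Trim30d, 11.8, 11.2 and 11.9% of the words occur in another TRIM gene. Trim43a, Trim43b and Trim43c, which lie on chromosome 9 and stayed under the filter, share 58.5 to 65.1% with other TRIM genes.

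The start sites were searched for a shared motif. The letters GAAANNGAAA, or TTTCNNTTTC on the other strand, are the core of the interferon-stimulated response element. They were searched in both orientations in RefSeq promoter windows of GRCm38.p6, from 250 bases before to 50 after each start. A match was found in 10 of 67 TRIM windows (14.9%, from 53 genes matched by symbol) and in 1131 of all 32851 windows (3.44%). The genes were Trim2, Trim5, Trim12a, Trim12c, Trim21, Trim26, Trim30a, Trim30d and Trim34a, with 2 windows of Trim30a. A match is a description of the letters and not a shown binding site. The windows of the Trim5, Trim30 and Trim34 relatives are given beside that of Trim26, each on its gene's strand with the match in capitals, to show where the copies repeat each other (Trim5 with Trim12a and Trim12c, Trim30a with Trim30d) and where they do not (Trim34a).
Trim5 (chr7:104288136-104288165): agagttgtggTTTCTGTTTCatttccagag
Trim12a (chr7:104315466-104315495): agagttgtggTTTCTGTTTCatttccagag
Trim12c (chr7:104353359-104353388): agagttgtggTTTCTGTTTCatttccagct
Trim30a (chr7:104465210-104465239): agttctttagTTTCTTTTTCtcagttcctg
Trim30d (chr7:104507871-104507900): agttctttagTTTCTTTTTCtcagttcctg
Trim34a (chr7:104244457-104244486): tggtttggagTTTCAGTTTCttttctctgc
Trim26 (chr17:36836976-36837005): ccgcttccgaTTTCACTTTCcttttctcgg

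Genes known to respond to interferon were read beside them. Of 24 listed, 20 were tested, 0 passed in limma, and 10 were above and 10 below 0. The smallest unadjusted p of the list was that of Usp18, an ISG15 protease, at 1.28, 0.841 and 1.02 TPM in wild type and 1.16, 1.01 and 2.20 TPM in knockout (adjusted p = 0.9999 in limma). Bst2, known as tetherin, came next at 25.8 ± 5.17 and 29.8 ± 6.22 TPM.

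The nuclear group holds transcriptional cofactors with a PHD finger and bromodomain. All 3 tested genes had a log2 fold change below 0, with a median of -0.06, and none passed. Trim28, the KAP1 corepressor that silences transposable elements, was at 74.1, 55.2 and 73.1 TPM in wild type and 71.0, 50.4 and 74.2 TPM in knockout. In each genotype replicate 2 was the low library, and the log2 fold change was -0.06 ± 0.21. Trim24 was at 21.8 ± 1.90 and 19.9 ± 3.07 TPM, the largest change of the group at -0.14, and Trim33, a regulator of TGF-beta signalling, at 7.36 ± 1.44 and 7.17 ± 0.873 TPM.

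In the striated muscle group, Trim54 and Trim63 varied widely between libraries of the same genotype. Their coefficients of variation in wild type were 120 and 95.3%, the highest of the 46 tested genes. Trim54, a muscle RING-finger protein of the sarcomere on chromosome 5 (chr5:31116712-31137630), was at 7.39, 0.349 and 1.63 TPM in wild type and 3.07, 6.88 and 4.52 TPM in knockout. Wild type held both the highest and the lowest library. The log2 fold change was 1.07 ± 0.45, with an unadjusted p of 0.0243 and an adjusted p of 0.9999 in limma. Trim63, which encodes the muscle atrophy ligase MuRF1, was at 2.95, 0.313 and 1.03 TPM in wild type and 1.18, 2.54 and 1.48 TPM in knockout. Trim72, known as the membrane repair protein MG53, was at 9.09, 5.11 and 6.98 TPM against 5.18, 7.13 and 7.08 TPM.

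Skeletal muscle RNA moved with Trim54 and Trim63. For Trim72 the log2 fold change was -0.10 ± 0.25, and its libraries stood in another order. The 13 skeletal muscle markers summed to 3845, 229 and 824 TPM in wild type and 1457, 3900 and 2032 TPM in knockout. Ordered from low to high, the libraries stood in the same order for the markers as for Trim54 and Trim63, except that the top pair, wild-type replicate 1 and knockout replicate 2, changed places. All 13 markers had a log2 fold change above 0, with a median of 1.40, and 0.34 without wild-type replicate 2. Without that library the log2 fold change of Trim54 was 0.31 (limma adjusted p = 0.826). Without wild-type replicate 1 it was 1.92 with a limma adjusted p of 1.43e-06. Without knockout replicate 1 it was 1.33 with a limma adjusted p of 0.0119. The call thus depended on which library was left out. The part of muscle RNA in these values was not tested. In bulk tissue a different number of cells of a type and a different amount of RNA per cell cannot be told apart.

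**Figure D4:**
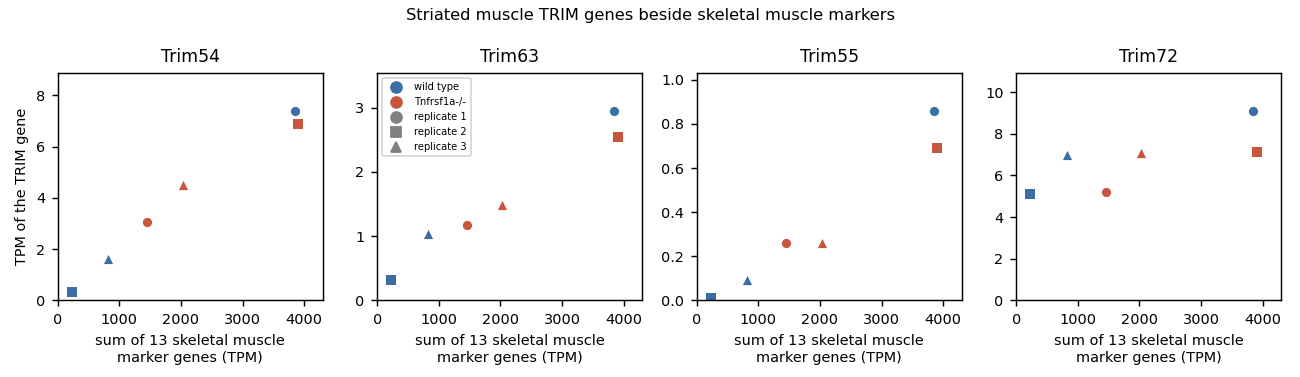
TPM of Trim54, Trim63, Trim55 and Trim72 in each library against the sum of 13 skeletal muscle marker genes in TPM (blue for wild type, red for Tnfrsf1a-/-, marker shape for the replicate). Wild-type replicate 1 and knockout replicate 2 are highest on both axes and wild-type replicate 2 is lowest on both in all 4 panels; Trim72 spans the narrowest relative range, from 5.11 to 9.09 TPM.

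Neither of the 2 tested TRIM genes of stratified epithelium passed. Trim16, a regulator of keratinocyte differentiation, was at 59.9, 56.7 and 71.5 TPM in wild type and 59.9, 57.6 and 70.1 TPM in knockout. These values were nearly the same in both genotypes (log2 fold change -0.003 ± 0.20). Trim29, a marker of basal and squamous cells, was at 13.6, 3.19 and 11.2 TPM in wild type and 11.2, 7.97 and 11.0 TPM in knockout. Its low library was wild-type replicate 2, in which 13 squamous markers summed to 264 TPM against 756 to 1124 TPM in the other 5 libraries. The part of squamous RNA in the Trim29 value was not tested.

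The NHL group holds ligases with a propeller domain that binds RNA or protein. None of its 3 tested members passed, with a median log2 fold change of -0.02. Trim2, known from neurons, was at 35.9, 26.1 and 42.1 TPM in wild type and 36.4, 34.0 and 35.5 TPM in knockout, so the knockouts lay inside the wild-type range. Trim3 was at 22.1 ± 6.01 and 20.4 ± 5.22 TPM, the largest change of the group at -0.11, and Trim32, linked to a limb-girdle muscular dystrophy, at 12.0 ± 3.66 and 11.4 ± 1.155 TPM. Among the microtubule-associated members, Trim46, known from the axon initial segment, was at 14.6, 7.09 and 12.3 TPM against 14.3, 13.2 and 13.5 TPM (log2 fold change 0.32 ± 0.24). Trim36 was at 6.72 ± 1.154 and 6.96 ± 0.80 TPM.

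The 8 tested genes with other roles had 3 values above 0 and 5 below, and none passed. Trim41, a ligase for protein kinase C, was at 74.9, 42.1 and 68.5 TPM in wild type and 68.8, 47.9 and 73.9 TPM in knockout. Trim44 was at 17.1 ± 3.88 and 15.3 ± 1.57 TPM, Trim35 at 10.9 ± 3.22 and 11.8 ± 1.41 TPM, and Trim37, the gene mutated in mulibrey nanism, at 10.5 ± 1.87 and 11.3 ± 1.90 TPM. Trim52 had the largest change of this group, at 1.72, 1.39 and 1.25 TPM against 1.77, 0.677 and 1.14 TPM (log2 fold change -0.25 ± 0.31), and its groups overlapped. Some TRIM exons overlap those of other genes. On the opposite strand Trim46 shares 239 bases with Krtcap2, Trim14 1356 with Nans, Trim54 382 with Gm15469 and Trim41 31 with Rack1. On the same strand Trim16 shares 237 bases with Fbxw10. The sources used here do not state whether strand was used in the counting.

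Genes that work with the TRIM ligases were read the same way. TRIM proteins under other names, such as Pml and Mid1, had 7 tested genes, of which 4 were above and 3 below 0. Those with the smallest unadjusted p were Cmya5, known as myospryn (2.35 ± 2.46 and 2.72 ± 0.484 TPM), and Rnf207 (3.18 ± 0.950 and 2.39 ± 1.55 TPM). Of 18 tested genes for RNA and DNA sensing, 12 were above and 6 below 0, with Tmem173, which encodes STING (5.01 ± 1.14 and 6.00 ± 0.565 TPM), and Mavs (21.3 ± 4.68 and 23.8 ± 2.36 TPM) at the smallest p. Among 12 genes of the ubiquitin-conjugating machinery, 8 were above and 4 below 0. There Ube2w, which attaches the first ubiquitin of a chain (30.6 ± 12.8 and 34.2 ± 4.10 TPM), and Ube2n, the enzyme of the ubiquitin chains used in signalling (41.4 ± 10.02 and 46.4 ± 2.45 TPM), came first. None of these 37 genes passed in limma, and none had an unadjusted p under 0.05. Cmya5, which encodes a striated muscle protein, was at 5.12, 0.429 and 1.48 TPM in wild type and 2.23, 3.20 and 2.72 TPM in knockout. Its low library was wild-type replicate 2, as for the skeletal muscle markers, and without wild-type replicate 1 its adjusted p was 0.0228 in limma.

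The make-up of each TRIM gene was read from its transcript shares. The leading transcript was the same by mean share in both genotypes in 38 of the 41 tested genes with at least 2 listed transcripts, the exceptions being Trim11, Trim3 and Trim47. A leader can keep its place while its estimated share moves, as in Trim39. In wild type 37 of the 41 leading transcripts were protein coding. Trim46 was led by a processed transcript that held 72.0% of its level, and Trim40 by a transcript with a retained intron at 41.5%. No 31-base word of that Trim46 transcript is its own within the gene, so its share rests on how shared reads were split. Among tested transcripts 11 of 106 (10.4%) had groups without overlap, against 8.19% of all. Among tested shares it was 20 of 101 (19.8%), against 17.7%.

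Differences in share were ranked in TRIM genes that averaged 5 TPM or more, Trim26 included. No Trim26 transcript was among the 10 largest. Of those 10, Trim32 ENSMUST00000156922 and Trim6 ENSMUST00000128493 were not tested, and none of the others passed the limma test. Trim39 had the largest difference: its coding transcript ENSMUST00000113706 held 40.2, 23.7 and 27.9% in wild type and 54.8, 58.3 and 42.5% in knockout. These groups did not overlap, and the adjusted p was 0.429 in limma. None of the 31-base words of that transcript is its own within the gene, so its share rests on how shared reads were split. A Trim32 transcript, ENSMUST00000156922, was at 0.789, 0.344 and 3.997 TPM in wild type, at 0 in knockout replicates 1 and 2 and at 0.000315 TPM in replicate 3. That pattern resembles the Trim26 short form, but its mean lay under the filter and it was not tested. The main Trim32 transcript ENSMUST00000050850 held 54.5, 50.2 and 48.1% against 64.7, 54.5 and 64.5% (adjusted p = 0.471), and its closest values nearly met. In wild type ENSMUST00000156922 held 5.57, 4.43 and 28.4% of the gene, and its near absence in knockout raises the shares of the others. Trim32 shares over the rest of the gene were not computed. Of the 3164 31-base words of ENSMUST00000050850, 28 are its own within the gene.

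Trim37 showed a similar separation, with ENSMUST00000139532 at 23.6, 26.5 and 27.0% in wild type and 38.9, 28.3 and 38.2% in knockout (adjusted p = 0.471 in limma). The closest pair lay at 27.0 and 28.3%. Of the 736 31-base words of that transcript, 29 are its own within the gene. The other 6 of the 10 largest differences belonged to Trim11, Trim47, Trim30a, Trim6 and Trim28 and overlapped between genotypes. In Trim11, ENSMUST00000093061 rested on knockout replicate 2, at 60.4% against 22.9 to 37.6% in the other 5 libraries. Only 4 of the 2221 31-base words of that transcript are its own within the gene. Trim28, for its part, had ENSMUST00000005705 at 79.8% in knockout replicate 2 and at 58.8 to 65.8% elsewhere. Knockout replicate 2 was thus the high library in both genes. Trim7, at a mean of 4.80 TPM, lay under the limit of 5 TPM and was added after its values were seen. Its leading transcript ENSMUST00000046903 held 59.7, 32.6 and 46.4% in wild type and 67.6, 59.2 and 75.1% in knockout, with overlap (adjusted p = 0.487). Of the 2131 31-base words of that transcript, 6 are its own within the gene.

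**Figure D5:**
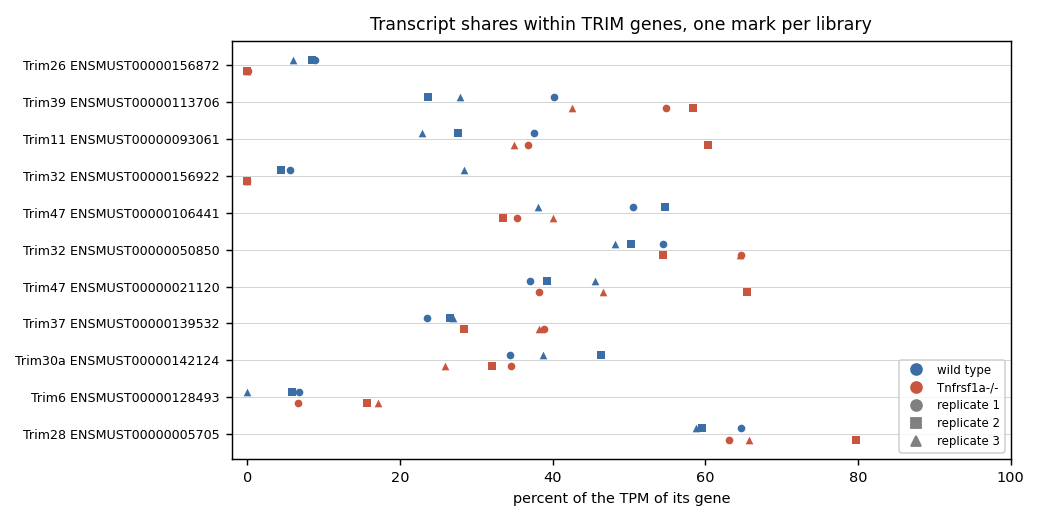
Percent of the TPM of its gene held by the Trim26 short form and by the 10 TRIM transcripts with the largest difference in mean share among genes that averaged 5 TPM or more, one mark for each library (blue for wild type, red for Tnfrsf1a-/-, marker shape for the replicate). The Trim26 short form and Trim32 ENSMUST00000156922 are near 0% in all 3 knockout libraries, and knockout replicate 2 is the outermost red mark in several rows.

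By transcript, the next smallest p after the Trim26 short form was that of ENSMUST00000107695 of Trim2, at 1.28, 1.77 and 2.44 TPM in wild type and 0.772, 0.123 and 0.156 TPM in knockout. All knockouts lay below all wild types (log2 fold change -1.51 ± 0.42), but the adjusted p was 0.698 in limma. Only 12 of the 7148 31-base words of that Trim2 transcript are its own within the gene, so its level rests largely on how shared reads were split. A noncoding Trim16 transcript, ENSMUST00000128623, was at 9.66, 6.64 and 8.52 TPM against 4.59, 4.57 and 5.85 TPM (log2 fold change -0.67 ± 0.23, adjusted p = 0.930). Both were named after their values were seen.

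Transcripts that keep an intron were mostly lower in knockout, among TRIM genes as in the whole table. Of 19 tested TRIM transcripts of this class, 17 had a log2 fold change below 0, with a median of -0.41. Over all genes it was 3988 of 4803 (83.0%), with a median of -0.34. As a share of all TRIM TPM this class held 9.28, 10.3 and 9.86% in wild type and 8.68, 5.41 and 8.37% in knockout, where replicate 2 was the lowest. Over all genes the share was 3.83% ± 0.225 and 3.08% ± 0.550, so TRIM genes carried more of this class in both genotypes. Without knockout replicate 2 the count was 11 of 19 with a median of -0.04, against 62.8% and -0.10 over all genes. Protein-coding transcripts held 81.8% ± 0.321 of the TRIM level in wild type and 85.1% ± 1.40 in knockout.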

How the data were processed

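The authors deposited 1 table of TPM, used here as an abundance signal per transcript. Per the submitters' processing notes it was made with kallisto 0.43.1 and sleuth on mm10; the sources used here do not give the transcript set, strand setting or read depth, so no counting interval can be set. Per the labels' protocols, libraries were made from polyadenylated RNA. The table's 132639 lines hold 131206 transcripts; 1433 repeated lines had the same values and were dropped, 43008 transcripts had no value and 1380 of the 88198 others had no gene.

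TPM were summed per gene. Genes and transcripts with a mean of at least 1 TPM were tested as log2(TPM + 0.5), and transcript shares as arcsine square roots, over the whole table with limma 3.58.1 in R 4.3.3 (a variance trend for levels), with Benjamini-Hochberg adjustment and a threshold of 0.05. The models were tested on simulated data. Single values used two-sided exact permutation tests. Positions and exons are from GENCODE M21, which held 266 of the 267 TRIM transcripts.

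The members, gene lists and tests were chosen with earlier results of these data known, including the Trim26 transcript. Named were Trim26 with all its transcripts, every member past the threshold, up to 4 tested members of highest level in each role group with that of the largest change and those without overlap, the 10 largest share differences among genes of at least 5 TPM, and in other lists the 2 genes of smallest p. Alternatives were pseudocounts of 0.1 and 1, other filters on low values, 2 scalings, no variance trend, log2 odds, the replicate number as a block and each library left out in turn. Added after the data were seen were the counts without overlap under both scalings and the retained-intron counts under the scalings and without each library. So were the counts of presence in one genotype and near absence in the other, and Trim26 shares over the rest of the gene.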

Additional observations from a re-analysis of the deposited data

How the results depend on the processing

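No tested value that passed the threshold changed sign under any alternative run. The count of TRIM genes past the threshold stayed 0 under every scaling, filter, pseudocount and variance setting and was 0 to 1 with each library left out, the 1 being Trim54. The count of TRIM transcripts, 1 in the main fit, was 0 with a pseudocount of 0.1, 0 with no filter, 0 with a filter of 5 TPM, which removes the Trim26 short form, and 0 to 1 with each library left out. The count of TRIM shares, 0 in the main fit, was 1 with log2 odds and 1 with a variance trend, in both the Trim26 short form (adjusted p = 0.0182 and 0.0396 in limma). Over all genes, 38 calls became 2 without a filter, 142 with a filter of 5 TPM, 6 after median-of-ratios scaling, 4 after rescaling and 19 to 307 with a library left out. Over all transcripts, 13 became 7 with a pseudocount of 0.1, 1 without a filter, 23 with a filter of 5 TPM and 1 to 57 with a library left out. Over all shares, 5 became 20 with a filter of 0.1 TPM, 8 with log2 odds, 10 with a variance trend and 0 to 1 with a library left out; the causes were not tested. The difference in share of the Trim26 short form ran from -8.65 to -7.24 points with each library left out. Among TRIM genes that did not pass, the sign of the log2 fold change turned in 15 of 46 after rescaling, 2 after median-of-ratios scaling and 17 without wild-type replicate 2, so directions of single genes are not firm. TRIM transcripts with a retained intron and a value below 0 numbered 11 to 18 of 19 with each library left out.

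The labels number the replicates 1 to 3 in both genotypes. Deviations of same-numbered libraries correlated at 0.0521, 0.132 and 0.184, and for each wild-type replicate this was its highest value with any knockout. These values were small and not all over 0.1, and knockout replicate 1 correlated more with wild-type replicate 3 (0.0981). The main fits took no pairing, and whether the numbers pair the samples was not settled. With the replicate number as a block, the TRIM counts were 0 genes, 0 transcripts (adjusted p = 0.147 for the Trim26 short form) and 0 shares, and calls over all features were 71 genes, 1 transcript and 0 shares. As differences within same-numbered pairs, the block left the Trim26 share at -7.76 points (exact permutation p = 0.25, the smallest that 3 pairs can give).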
